A study of Rattus norvegicus with 6 samples.

Results

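Acta1 and Ckm are 2 striated muscle genes, followed here in rat esophagus with and without a mechanical injury. Their rows, ENSRNOG00000017786 for Acta1 and ENSRNOG00000016837 for Ckm, were taken by identifier from the 32623 genes counted, and both were among the 14481 genes with enough counts to test. The pairing of these identifiers with the symbols was given with the choice of genes. The reference gene table used here holds 0 Ensembl identifiers, so the pairing was not checked against it. All 6 animals were male wild-type Sprague-Dawley rats, an outbred laboratory strain, described as 8 to 10 weeks old, with 1 library of polyadenylated RNA per animal. The 3 controls were untreated and had no sham procedure named. In the 3 injured rats a customized 3D-printed device was passed through the mouth to a depth of about 9 to 10 cm and moved back and forth in 8 to 10 friction cycles of about 3 to 5 s each. Tissue of both groups was taken on day 28 as full-thickness esophagus, so muscle, epithelium and connective tissue were sequenced together.

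Acta1 encodes skeletal muscle alpha-actin, the actin of the thin filaments of striated muscle fibres. Ckm encodes the muscle form of creatine kinase, the enzyme that regenerates ATP from phosphocreatine during contraction. The rat esophagus, unlike that of humans, has an outer muscle coat of striated fibres along its length, while smooth muscle lies in the thin muscle layer of the mucosa and in vessel walls. Both genes are switched on as muscle fibres differentiate. In tissue of this kind fewer muscle fibres and less of a transcript per fibre cannot be told apart.

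The sequences at the start sites of the 2 genes are shown as background, and no link between these sequences and the measured levels was tested. Both symbols matched RefSeq, and each window runs from 250 bases before to 50 after the RefSeq gene start in the GRCr8 assembly, a different build from the Rnor_6.0 build named for the counts. The Acta1 window is chr19:68784145-68784444 on the minus strand and the Ckm window is chr1:88189211-88189510 on the plus strand. Each is written 5′ to 3′, with capitals marking matches to the E-box (CANNTG), the CArG box, the MEF2 box, the MCAT element (CATTCC) and a TATA sequence (TATANA), searched on both strands.
Acta1: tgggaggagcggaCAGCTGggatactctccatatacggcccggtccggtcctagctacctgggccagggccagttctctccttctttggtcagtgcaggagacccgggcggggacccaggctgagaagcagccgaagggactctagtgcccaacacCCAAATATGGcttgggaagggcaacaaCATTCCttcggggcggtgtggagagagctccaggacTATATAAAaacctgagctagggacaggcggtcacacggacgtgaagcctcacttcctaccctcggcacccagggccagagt
Ckm: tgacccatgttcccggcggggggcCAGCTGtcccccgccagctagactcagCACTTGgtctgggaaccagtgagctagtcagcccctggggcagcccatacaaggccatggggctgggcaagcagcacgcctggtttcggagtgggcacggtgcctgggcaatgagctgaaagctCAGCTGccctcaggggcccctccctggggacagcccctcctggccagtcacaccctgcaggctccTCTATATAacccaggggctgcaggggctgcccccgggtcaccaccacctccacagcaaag
The E-box, the core of sites for the MyoD family of muscle regulators, occurred at 1 position in the Acta1 window (CAGCTG, -237 to -232) and at 3 in the Ckm window (CAGCTG at -226 to -221 and at -75 to -70, CACTTG at -199 to -194). Of 33469 RefSeq windows of the same length, 72.1% held at least 1 E-box and 16.6% held at least 3. Acta1 alone of the pair held a CArG box, the type of site known for serum response factor (CCAAATATGG, -94 to -85), found in 1.64% of all windows. It also held 1 MCAT element at -67 to -62, found in 14.2% of windows. Each window had 2 overlapping matches to the TATA sequence, spanning -31 to -24 in Acta1 and -10 to -3 in Ckm, and 26.5% of windows held at least 1. No other matches overlapped. No match to the MEF2 box lay in either window, against 3.29% of windows with one. These are letter matches in short windows and not measured sites.

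Library totals lay between 14181903 and 18376578 counts. Control replicate 2 stood apart from the other controls in its whole profile, with Spearman correlations over the tested genes of 0.936 and 0.964 to them, against 0.972 between control replicates 1 and 3 and 0.971 to 0.987 between injured libraries. Other striated muscle genes, listed by symbol, and marker lists of smooth muscle, epithelium, fibroblasts, endothelium and leukocytes, were not analysed here, since no table used here pairs their symbols with the identifiers. The labelled tissue was therefore not checked by marker genes, since the 2 genes alone cannot tell it from other tissue with striated muscle.

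Both genes were among the genes with the most counts in every animal, with counts not divided by transcript length. Acta1 ranked 2 and Ckm 13 by mean CPM (the count relative to library size, after scaling with TMM, the trimmed mean of M-values) of all tested genes. Within single libraries Acta1 ranked 2 or 3 and Ckm 11 to 15 by count. Of all counts, both genes together took 2.51%, 3.42% and 2.94% in the 3 controls, listed by replicate number as throughout, and 2.76%, 2.86% and 2.57% in the 3 injured rats. The exact Clopper-Pearson 95% intervals of these shares cover counting error only and were narrow, for example 3.415% to 3.431% in control replicate 2 and 2.507% to 2.522% in control replicate 1. Counting error was thus small beside the differences between animals. The injured shares, without scaling, all lay inside the range of the control shares. With totals adjusted by TMM, injured replicate 3 lay at 2.51%, below the lowest control, replicate 1, at 2.61%.

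Acta1, the thin filament actin, had control levels of 19071, 26299 and 21827 CPM. Its levels after injury were 20206, 19942 and 18579 CPM. Control replicate 2 was the highest library, control replicate 1 lay within the injured range, and the groups overlapped. Reads shared with other actin genes of similar coding sequence may be counted here or left out, since the treatment of multiply mapped reads is not given. The raw counts of the controls were 317811, 470852 and 302615, and those of the injured rats 379246, 328351 and 317256. Control animals averaged 22399 ± 3648 CPM, compared with 19576 ± 873 CPM after injury (SD, n = 3 each). The log2 fold change, injured minus control, was -0.19 (standard error 0.19, edgeR quasi-likelihood test, adjusted p = 0.58). Its 95% interval ran from -0.64 to 0.25, that is from 0.643-fold to 1.19-fold of the control level.

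Ckm, the creatine kinase of muscle, had control levels of 7065, 8619 and 8197 CPM. After injury its levels were 6860, 7786 and 6543 CPM. Injured replicates 1 and 3 lay below all controls, while injured replicate 2 lay above control replicate 1, so the groups overlapped here too. Between same-numbered libraries, which come from different animals, Ckm was lower after injury in 3 of 3 pairs, at 0.971, 0.903 and 0.798 of the control level. Acta1 was lower in 2 of 3, at 1.06, 0.758 and 0.851. No label pairs these animals, so another matching would give other ratios. The share of all tested genes that were lower in 3 of 3 such pairs was not counted. The control counts were 117737, 154317 and 113640, against 128762, 128195 and 111729 after injury. Control animals averaged 7960 ± 804 CPM, compared with 7063 ± 646 CPM after injury (SD, n = 3 each). The log2 fold change was -0.17 (standard error 0.15, edgeR quasi-likelihood test, adjusted p = 0.553), and its 95% interval ran from -0.54 to 0.20, or from 0.688-fold to 1.15-fold.

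**Figure D1:**
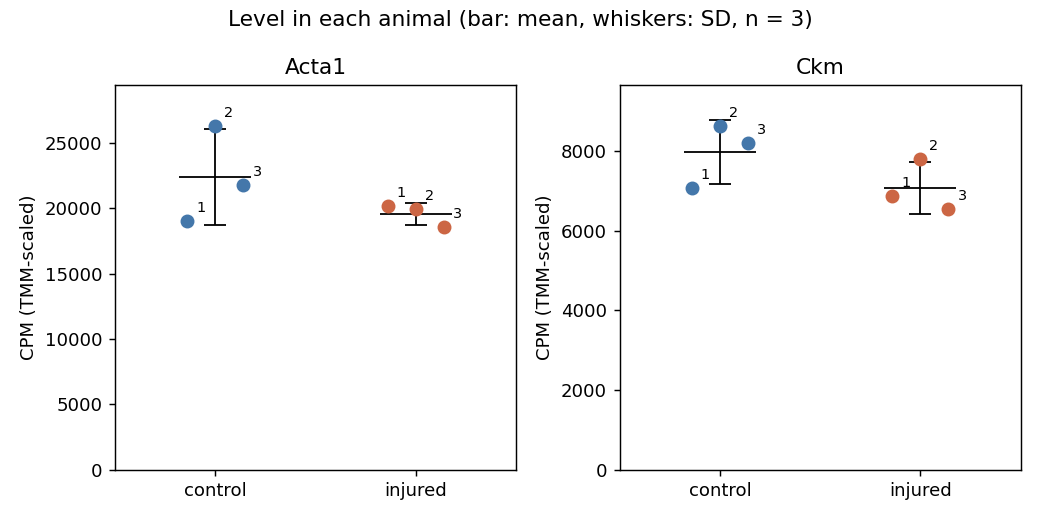
Level of Acta1 (left) and Ckm (right) in CPM scaled by TMM, from 0, for each of 3 control and 3 injured animals. Points are animals labelled with their replicate number, bars are group means and whiskers are SD. In Acta1 control replicate 2 at 26299 CPM is the highest point, and in both genes the groups overlap.

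Neither gene passed the test. Of all 14481 tested genes, 196 or 1.35% were called at an adjusted p under 0.05 (edgeR), and 29.2% had groups that did not overlap in CPM. The number of called genes depended on single libraries: it was 334 without control replicate 1, 68 and 12 without control replicates 2 and 3, and 55, 10 and 2 without injured replicates 1, 2 and 3. A fit that added the replicate number as a block called 546 genes (3.77%), again without Acta1 or Ckm. The unadjusted p-values were 0.332 for Acta1 and 0.302 for Ckm (edgeR), so 0 of 2 were under 0.05, against 21.4% of all tested genes. DESeq2 called 0 of the 2 and 9.95% of all genes, and limma-voom called 0 of the 2 and 0.856%. The absolute change of Acta1 was larger than that of 39.5% of the tested genes and that of Ckm larger than that of 35.6%. Among the 100 most abundant tested genes, which include both and reach down to 911 CPM, 1 was called higher and 2 lower in injured animals, and the median log2 fold change was -0.23, against -0.01 over all tested genes. The values of Acta1 and Ckm were a little nearer to 0 than this median of the abundant genes. A missed threshold does not show equal levels: the intervals of both genes still include the lower levels given above.

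**Figure D2:**
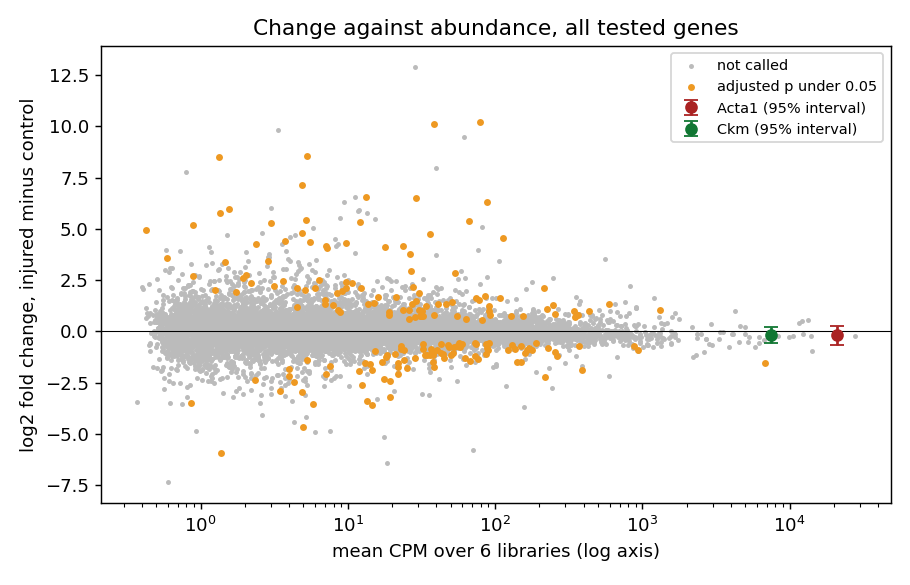
Log2 fold change, injured minus control, against mean CPM over 6 libraries (log axis) for the 14481 tested genes. Grey points were not called, orange points had an adjusted p under 0.05, and Acta1 and Ckm carry their 95% intervals. Both lie at the abundant end, just below 0, with intervals that include 0.

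The size of the difference in Acta1 depended on control replicate 2. Without that library the log2 fold change was -0.06 for Acta1 and -0.11 for Ckm (edgeR, adjusted p = 0.876 and 0.746), and without control replicate 1 it was -0.29 and -0.25 (edgeR, adjusted p = 0.242 and 0.265). Scaled by library size alone it was -0.12 for Acta1 and -0.10 for Ckm. In all 17 other fits both genes remained on the lower side in injured animals and neither was called.

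**Figure D3:**
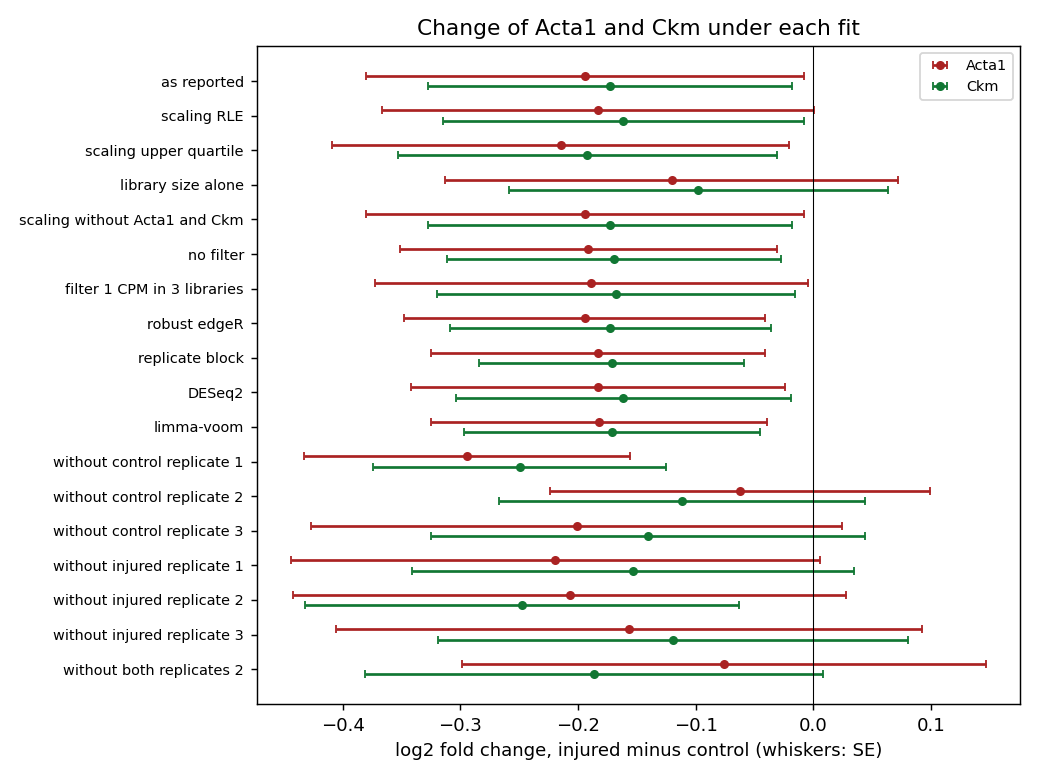
Log2 fold change, injured minus control, of Acta1 and Ckm in the reported fit and in 17 other fits. Whiskers are standard errors. Every point lies below 0, and Acta1 comes closest to it without control replicate 2, at -0.06.

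The share of both genes together was first taken without a scaling factor. It was 2.96% ± 0.455 in controls and 2.73% ± 0.149 in injured animals (SD, n = 3 each), a difference of -0.226 percentage points (exact two-sided permutation test, p = 0.5). With 3 animals against 3 this test allows no p under 0.1. Without control replicate 2 the difference was 0.0071 percentage points, with injured animals on the higher side.

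The proportion of Acta1 to Ckm counts lay between 2.56 and 3.05 in all 6 animals. The ratio of Acta1 to Ckm counts, not divided by transcript length, was 2.70, 3.05 and 2.66 in the controls, against 2.95, 2.56 and 2.84 after injury. On the log2 scale the ratio was 1.49 ± 0.11 in controls and 1.47 ± 0.10 in injured animals (SD, n = 3 each). The difference was -0.01 (exact two-sided permutation test, p = 1.0, smallest possible 0.1). No difference in response between the contractile and the metabolic gene was detected, which with 3 animals a group does not show that they respond alike. The difference in the log2 ratio was positive without control replicate 2 and without injured replicate 2, at 0.05 in both.

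Across the 6 animals the log2 levels of the 2 genes varied together, with Pearson's r = 0.85 (exact permutation p = 0.0167) and Spearman's rho = 0.83 (exact permutation p = 0.0583). Both levels of a library share its total and its scaling factor. On shares of total counts, which leave out the scaling factor but still share the total, r was 0.83. Without the 2 libraries farthest from the median Acta1 level, control replicates 2 and 3, r was 0.56 over 4 libraries, a value that a narrower range of Acta1 also lowers. Without control replicate 2 alone it was 0.82. This was the only relation across animals that was tested, and its p-values are not adjusted.

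Animals of one group differed more in Acta1 among the controls than among the injured. Acta1 varied 1.38-fold from the lowest to the highest control and 1.09-fold among injured animals, with coefficients of variation of 16.3% and 4.46%. Ckm varied 1.22-fold among controls and 1.19-fold among injured animals, with coefficients of 10.1% and 9.14%. The SD of log2 CPM was 0.23 for Acta1 in controls and 0.07 in injured animals. For Ckm it was 0.15 in controls and 0.13 in injured animals. The log2 range of Acta1 in controls was 0.46, and it was 0.21 without control replicate 2, the highest, and 0.24 without control replicate 1, the lowest. With Acta1 and Ckm set aside, the 100 most abundant remaining genes had a median SD of 0.21 in controls and 0.12 in injured animals, so that their median, too, was lower in injured animals. In controls 43 of these 100 genes had a larger SD than Acta1 and 81 a larger one than Ckm. In injured animals 86 had a larger SD than Acta1 and 49 a larger one than Ckm. No test of the spread was made, since 3 animals a group are too few.

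**Figure D4:**
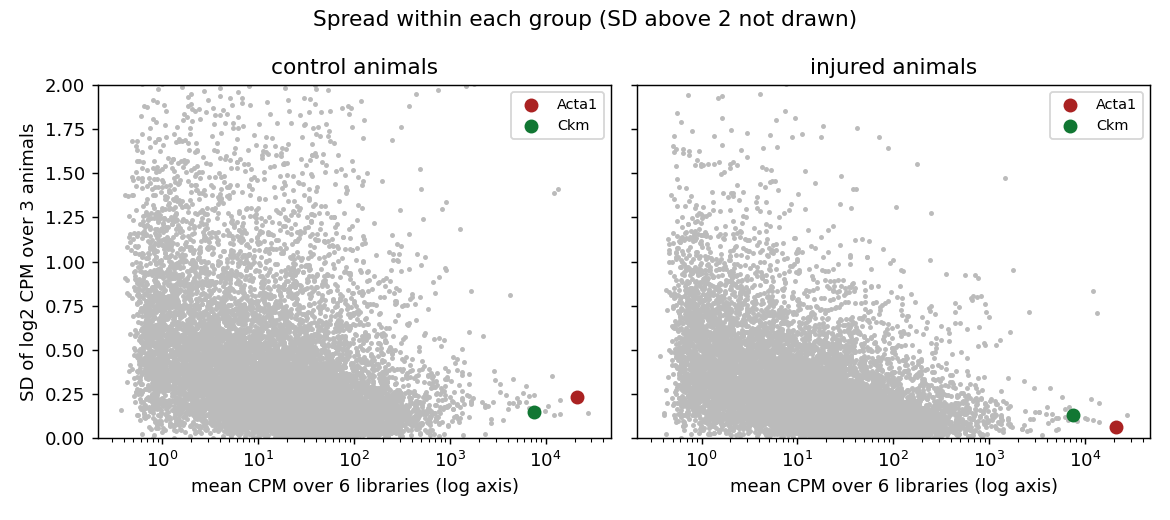
SD of log2 CPM over 3 animals against mean CPM over 6 libraries (log axis), controls left and injured animals right, with every tested gene in grey apart from 188 control and 20 injured values above 2. Acta1 lies at 0.23 in controls and 0.07 in injured animals, and Ckm at 0.15 and 0.13.

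Other transcripts followed the same course over the libraries. The log2 CPM of each of 3418 genes averaging 50 CPM or more was correlated over the 6 libraries with the mean log2 CPM of Acta1 and Ckm, as a description. All genes of a library share its depth, its scaling and the piece of tissue taken. An r of at least 0.95 was found in 41 genes (1.2%) and one of -0.95 or less in 61 (1.78%), with a median over all of 0.23. Among the 98 genes other than Acta1 and Ckm in the 100 most abundant, the median r was 0.57, and 3 had an r of at least 0.95 and 1 an r of -0.95 or less. Of the 66 genes in this set that were called between the groups (1.93%), 0 were among the 41 and 0 among the 61. The 41 and 61 were chosen by their course beside 2 genes that were not called, so this lack of calls carries no further information. The counts of 41 and 61 changed when single libraries were left out, where fewer values enter each r and a high r is reached more easily. They were 13 and 23 without control replicate 2, 159 and 110 without control replicate 1, and 77 to 114 and 97 to 128 without any one of the other 4 libraries. On deviations from the group means they were 70 and 80.

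The gene most like the pair was ENSRNOG00000009183, with r = 0.993, whose controls read 149, 185 and 172 CPM and whose injured rats read 149, 158 and 143 CPM. ENSRNOG00000033765 was next, with r = 0.991, with 564, 834 and 664 CPM without injury and 571, 625 and 534 CPM with it. Both had their highest value in control replicate 2 and their lowest in injured replicate 3, and their log2 fold changes were -0.17 and -0.25 (edgeR, adjusted p = 0.412 and 0.403). The opposite course was clearest in ENSRNOG00000007834 (r = -0.987), with 85.4, 63.2 and 70.0 CPM without injury and 82.1, 74.5 and 87.7 CPM with it. ENSRNOG00000011969 (r = -0.986) had control levels of 81.7, 55.1 and 65.9 CPM, against 87.6, 77.6 and 94.8 CPM after injury. These were lowest in control replicate 2 and highest in injured replicate 3. These 4 genes are the extremes of r over the same 6 libraries and were chosen for it.

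**Figure D5:**
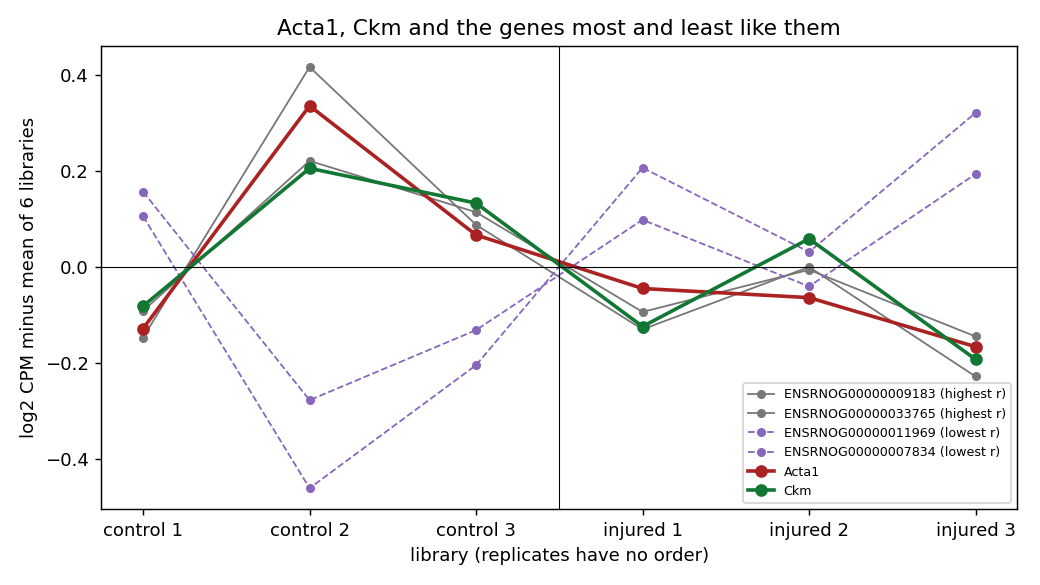
Log2 CPM minus the mean of the 6 libraries for Acta1, Ckm, the 2 genes with the highest r (grey) and the 2 with the lowest r (dashed). Lines only join the points of one gene, since replicates have no order. Acta1, Ckm and the grey genes peak in control replicate 2 and are lowest in injured replicate 3, and the dashed genes do the reverse.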

How the data were processed

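The authors deposited whole-number counts per Ensembl gene, 1 column per animal and not normalized. Per the submitters' processing notes, the build was Rnor_6.0 and HTSeq 0.6.1 and HISAT2 2.2.1 were among the tools, beside DESeq2 1.50.2, fastp 0.24.1 and bcl2fastq 2.20.0.422. How strand and multiply mapped reads were treated, and with which annotation, is not given in the sources used here, so reads shared between Acta1 and other actin genes of similar coding sequence are an uncertainty.

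Genes were filtered with filterByExpr (minimum count 10, minimum total 15), scaled by TMM and tested for the group with the quasi-likelihood F test of edgeR 4.0.16 (R 4.3.3), with no other term, adjusted by the Benjamini-Hochberg method over 14481 genes and called under 0.05. Standard errors are the absolute log2 fold change over the square root of F. Log2 CPM used a prior count of 2. Single values per animal were compared by exact permutation (SciPy 1.17.1). The edgeR fit was tested on simulated counts, with planted changes larger than those of Acta1 and Ckm. The permutation, correlation and spread computations were not tested in this way.

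The labels name separate animals, and libraries of one group differed beyond sampling noise (lowest chi-square over its degrees of freedom 16.0). Same-numbered control and injured libraries, from different animals, deviated from their group means together (r = 0.37, 0.37 and 0.10 over genes, all above 0.1). Differently numbered libraries were not compared in this way, so these values do not show that same-numbered animals are paired. No label gives a pairing either, and the replicate block stands beside the counts of calls only as an alternative. DESeq2 1.42.0, limma-voom 3.58.1, other scalings and filters and fits without 1 library were alternatives. The genes of likest course were the 2 highest and 2 lowest by r at 50 CPM or more. The 2 genes, lists and rules were chosen with earlier results of these data known.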

Additional observations from a re-analysis of the deposited data

How the results depend on the processing

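For Acta1 and Ckm all 17 alternative fits gave a lower level in injured animals with no call, and the log2 fold change ran from -0.29 to -0.06 for Acta1 and from -0.25 to -0.10 for Ckm. Leaving out 1 library set both ends for Acta1, without control replicate 1 and without control replicate 2. With the replicate block the values were -0.18 (edgeR, adjusted p = 0.447) and -0.17 (adjusted p = 0.375), the share of both genes differed by -0.226 percentage points (exact sign-flip permutation p = 0.5) and the log2 ratio by -0.01 (p = 1.0). The block changed no call of either gene, and raised the number of called genes from 196 to 546. That number was 1439 with DESeq2, 124 with limma-voom, and 2 to 334 without 1 library; the cause was not tested. Scaling by library size alone gave 196 calls as well, but split into 129 higher and 67 lower, against 103 and 93. Without 1 library the difference in the share of both genes ran from -0.447 to 0.0071 percentage points and that in the log2 ratio from -0.0537 to 0.0508, with the sign of the share turned without control replicate 2 and that of the ratio without control replicate 2 (0.0508) and without injured replicate 2 (0.047). Without 1 library the log2 range within a group ran from 0.2136 to 0.4583 for Acta1 in controls, from 0.019 to 0.1211 for Acta1 in injured animals, from 0.0483 to 0.2815 for Ckm in controls and from 0.0683 to 0.2509 for Ckm in injured animals. The number of genes at an r of at least 0.95 ran from 13 to 159 over the alternatives, and at -0.95 or less from 23 to 128. Some of these alternatives rest on fewer libraries, so their counts are not on one footing. The fits without replicate 2 of both groups, and the correlation without control replicate 2, were chosen after seeing the data. Counting error was negligible for both genes, and the number of animals limits the precision.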
